A study of Mus musculus with 11 samples.

Results

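The clock genes described here are Clock, Nr1d1, Nr1d2, Cry1, Cry2, Per1, Ciart, Dbp and Tef, together with Usp2, a ubiquitin protease whose message cycles with the clock in many tissues. These 10 genes were chosen by name from the 14351 genes named on the arrays, and where a gene had several probe sets, the one with the highest average over all 11 arrays stood for it. That mean is the only measured value the choice of probe set used. The list itself was put together with results of these arrays known, so counts of its members are given as descriptions and support nothing about the clock as a whole.

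The arrays, one-colour Affymetrix arrays, carried lung RNA of Balb/c mice, either WT or 4ebp1-/-/4ebp2-/-. The double knockout lacks Eif4ebp1 and Eif4ebp2, which encode 2 repressors of translation that act by occupying eIF4E, the protein that recognises the mRNA cap. The wild-type mice were bought from a commercial breeder and the knockouts came from another laboratory, so colony and genotype cannot be told apart. All groups were started at 5 weeks of age on the same purified AIN-93M diet. Neither their age at collection nor the hour of day at which lungs were taken is given in the sources used here. If that age or hour differed between the genotypes, it cannot be told apart from genotype. There were 3 arrays of total RNA from WT lung, 3 of total RNA from knockout lung, 2 of polysomal RNA from WT lung and 3 of polysomal RNA from knockout lung. Polysomal RNA was pooled from gradient fractions 7 to 10 of 10, which hold messages with 3 or more ribosomes. Nothing in the labels ties an array to a single mouse. The p-values therefore rest on array-to-array spread, part of which may be technical.

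The circadian clock is a feedback loop of transcription that most cells keep, lung cells included. CLOCK and its partner BMAL1, the product of Arntl, bind E-box sequences and switch on the Per and Cry genes, whose proteins return to the nucleus and repress CLOCK and BMAL1. The same E-boxes drive Nr1d1 and Nr1d2, nuclear receptors that repress Arntl and Clock in a loop with the activating ROR receptors, and Ciart, a further repressor of the CLOCK and BMAL1 pair. Dbp, Tef and Hlf are transcription factors of the PAR bZIP family that pass the rhythm on to genes of metabolism.

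Promoter sequence is shown because the E-box is the sequence through which CLOCK and BMAL1 act, and 4 of the 10 genes hold its letters CACGTG close to a start. Usp2, Cry2, Dbp, Clock, Nr1d1 and Nr1d2 do not hold them in the windows searched. The windows run from 250 bases before to 50 bases after each RefSeq start on GRCm38.p6. All 10 genes matched the table, with 14 windows. The E-box, searched on both strands, was in 5 of these 14 windows and in 7.15% of all 32851 windows of the table. Each line gives 50 bases on the strand of the gene, 5′ to 3′, with the E-box in capitals.
Ciart, first site, chr3:95882317-95882366, minus strand: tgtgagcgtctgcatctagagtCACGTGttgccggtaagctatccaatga
Ciart, the other sites, chr3:95882259-95882308, minus strand: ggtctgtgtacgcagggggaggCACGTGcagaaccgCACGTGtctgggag
Cry1, chr10:85185087-85185136, minus strand: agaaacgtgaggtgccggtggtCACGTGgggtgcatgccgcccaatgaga
Per1, chr11:69098761-69098810, plus strand: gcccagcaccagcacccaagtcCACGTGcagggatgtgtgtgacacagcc
Tef, chr15:81802524-81802573, plus strand: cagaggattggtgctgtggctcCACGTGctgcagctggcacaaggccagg

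Counted from the start, the 3 Ciart sites begin at -116, -58 and -44, the Cry1 site at -60, the Per1 site at -166 and the Tef site at -127. A further Tef window had a site at -138. The Per1 window belongs to a start inside the RefSeq span of the gene, chr11:69095108-69109965. The only Usp2 window, chr9:44084670-44084969, likewise lies inside the span of that gene, chr9:44067021-44095627. The 5′ end of the Usp2 span was therefore not searched. Tef carries the same letters as Cry1 and did not pass in either genotype comparison, as described below. Whether these letters bear on the genotype differences was not tested. No window of the 10 genes held the D-box letters TTATGTAA or TTACGTAA (1.06% of all windows), the ROR core letters TAGGTCA or TGGGTCA (6.45%), or the cAMP element TGACGTCA (1.79%). These are matches of letters and say nothing of binding.

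The deposited values are log2 expression, 1 value per probe set and array, made with GCRMA. Values of different genes are not comparable with each other, because each probe set has its own response. Of the targeted genes, Eif4ebp2 lay at 4.503 to 5.49 log2 on WT and 2.61 to 3.26 on knockout total arrays, and at 5.76 to 6.09 and 3.75 to 3.92 on the polysomal arrays. Eif4ebp1 lay at 8.20 to 8.54 and 7.92 to 7.94 in total RNA, and at 7.78 to 7.93 and 7.05 to 7.36 in polysomal RNA. Where the probes of both genes lie relative to the deleted parts is not known here, so these values are a limited check of the labels. Lung markers were present, with Sftpc at a mean of 15.8 log2 and Scgb1a1 at 16.4, whereas 4 liver markers averaged 2.29 to 3.12. Of 3 brain markers measured, Mbp, a myelin gene, averaged 8.49 and the lowest, Syn1, 1.52. The probe sets too dim to test had array medians of 2.30 to 2.49, taken here as the floor. The WT total array of replicate 3 was the lowest WT total array for 8 of the 10 genes and for 46% of all genes tested.

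**Figure D1:**
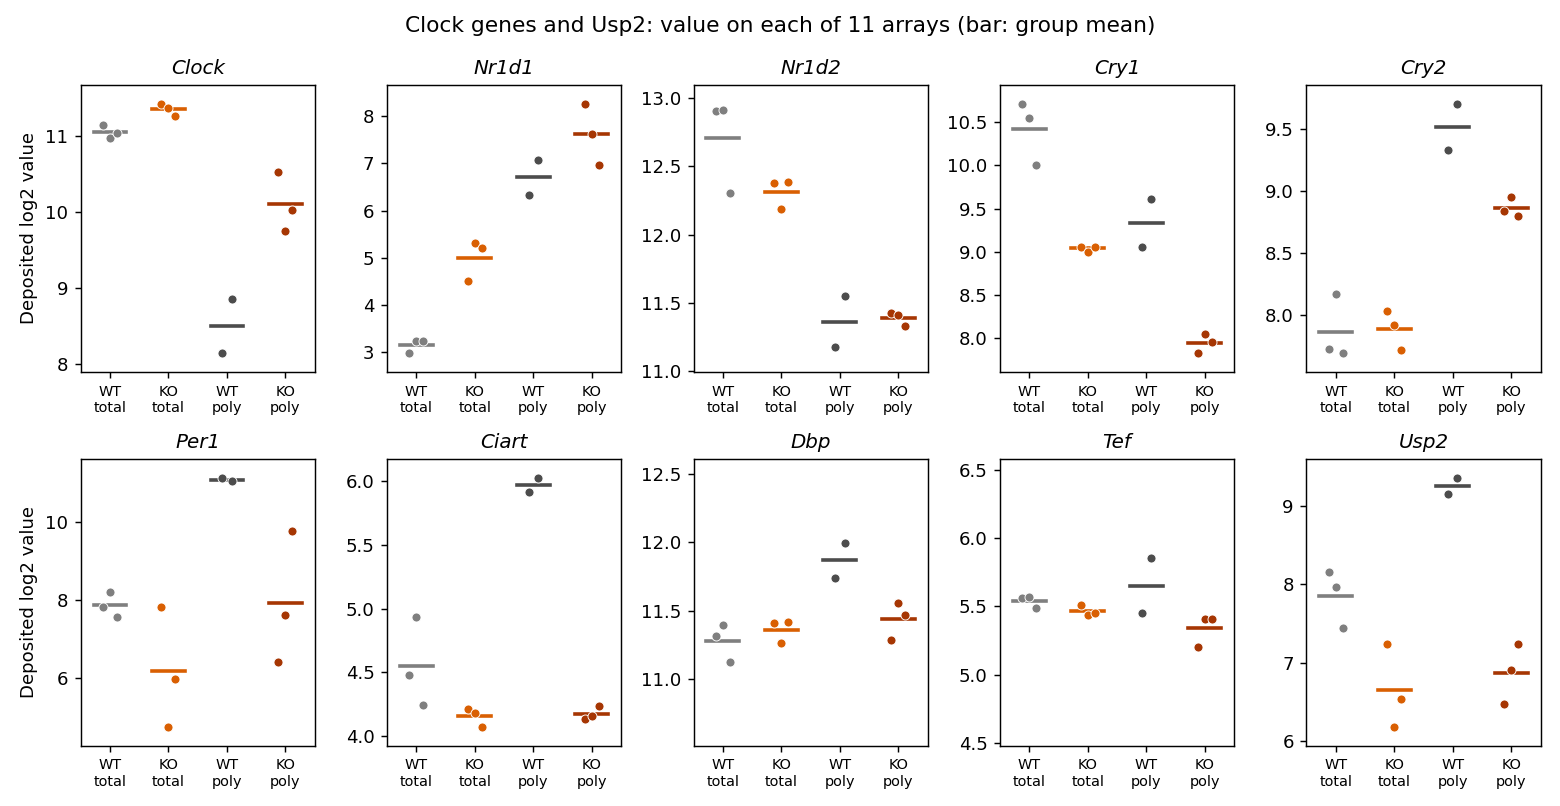
Deposited log2 value (y axis, a separate range for each gene) of the 10 genes on each array, by genotype and RNA kind (x axis); points are arrays and bars are group means. Ciart and Usp2 are highest on the 2 wild-type polysomal arrays, and Cry1 is low on all 6 knockout arrays within each RNA kind.

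In knockout lung the message of Cry1, a repressor of CLOCK and BMAL1, was 2.61-fold lower in total RNA and 2.63-fold lower in polysomal RNA. Usp2 was lower in both RNA kinds as well, by 2.30-fold and 5.22-fold. Ciart was lower and Clock was higher in polysomal RNA, by 3.47-fold and 3.04-fold. Nr1d1 was higher in total RNA, from WT values not far above the floor, which limit how well its size is known. Nr1d2 and Tef did not pass in either comparison. In total RNA 1 of the 10 genes rose, 2 fell and 7 did not pass, against 23.2% of 8085 genes called in all (17.2% higher and 5.97% lower). In polysomal RNA 1 rose, 5 fell and 4 did not pass, against 15.1% of all genes (8.36% higher and 6.77% lower). Ciart, 1 of these 5, entered the test through its WT polysomal arrays alone. The median difference of the 10 genes was -0.23 log2 in total RNA and -0.54 in polysomal RNA, beside 0.085 and -0.0080 for all genes tested. Calls come from limma with the Benjamini-Hochberg adjustment over 13802 probe sets and a threshold of 0.05. Both comparisons within an RNA kind use their own arrays, but all 4 groups share 1 estimate of the spread.

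The repressors that close the feedback loop differed among themselves. Cry1 measured 10.71, 10.55 and 10.01 log2 on the WT total arrays and 9.06, 8.99 and 9.06 on the knockout total arrays. On polysomal arrays it measured 9.06 and 9.62 in WT and 7.83, 8.04 and 7.95 in knockout. Every knockout array lay below every WT array of its RNA kind, and the knockout total arrays sat as low as the lower WT polysomal array. In total RNA Cry1 fell by 1.39 log2 (SE 0.19, n = 3 WT and 3 knockout, adjusted p = 0.0017 by limma). On polysomal arrays it fell by 1.40 (SE 0.21, n = 2 WT and 3 knockout, adjusted p = 0.0033 by limma). Both calls held under every alternative recomputed for single genes, with limma adjusted p between 7.7e-04 and 0.011 in total RNA. The polysomal difference ran from -1.67 to -1.12 when 1 array at a time was left out. Between arrays of the same replicate set, a letter that the labels do not explain, the differences were -1.57 in set A and -0.98 in set B for total RNA, and -1.02 in set B and -1.66 in set C for polysomal RNA.

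Cry2, the second cryptochrome, did not follow Cry1. On the WT total arrays it measured 7.73, 8.17 and 7.70, and on the knockout total arrays 8.03, 7.92 and 7.72. The groups overlapped, with a difference of 0.03 (SE 0.15, 95% interval -0.31 to 0.37, limma adjusted p = 0.92). On polysomal arrays Cry2 measured 9.34 and 9.70 in WT and 8.85, 8.96 and 8.80 in knockout, without overlap. It fell there by 0.65 (SE 0.17, limma adjusted p = 0.031). With the replicate set letter as a block within each RNA kind it did not pass (limma adjusted p = 0.086). That call was lost without WT polysomal replicate 2 (adjusted p = 0.20), without any of the 3 knockout polysomal arrays (0.057 to 0.076) and without a filter on low values (0.061).

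Per1, a period gene that also responds to light and hormones, varied most between arrays of a group. The WT total arrays stood at 7.82, 8.19 and 7.55, and the knockout total arrays at 7.81, 4.74 and 5.96. The WT polysomal arrays lay close together at 11.13 and 11.04, while the knockout polysomal arrays were spread over 6.41, 7.61 and 9.77. All 3 knockout polysomal arrays lay below both WT polysomal arrays, and in total RNA the groups overlapped. The difference was -1.68 for total RNA (SE 0.86, adjusted p = 0.19 by limma) and -3.16 for polysomal RNA (SE 0.97, 95% interval -5.32 to -0.997, adjusted p = 0.055), so neither passed. The polysomal difference passed when knockout total replicate 1 (adjusted p = 0.040), knockout total replicate 2 (0.048) or knockout polysomal replicate 3 (0.018) was left out. Within set A the total RNA difference was -0.20 and within set B it was -2.20.

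Ciart was measured at 4.48, 4.94 and 4.25 on the WT total arrays and at 5.91 and 6.03 on the WT polysomal arrays. On the 6 knockout arrays it stayed between 4.07 and 4.24, whichever RNA was measured. The probe set was tested only because the 2 WT polysomal arrays exceeded 5 log2, the level required on at least 2 arrays. That choice favours a high value on those arrays, so its polysomal difference is given as a description. In polysomal RNA it fell by 1.79 (SE 0.17, limma adjusted p = 6.2e-04). In total RNA the difference was -0.40 (SE 0.15, adjusted p = 0.088 by limma), and it passed without WT total replicate 3 (-0.55, adjusted p = 0.016). All knockout values of Ciart were above the floor but below the level of 5 used to choose probe sets.

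The activator and the nuclear receptors moved in other directions. Clock, the partner of BMAL1, measured 11.15, 10.97 and 11.04 on WT total arrays and 11.42, 11.37 and 11.26 on knockout total arrays. These groups did not overlap, but the difference of 0.30 did not pass (SE 0.21, limma adjusted p = 0.34). On polysomal arrays Clock measured 8.14 and 8.85 in WT and 10.53, 9.75 and 10.03 in knockout, again without overlap. There it rose by 1.61 (SE 0.24, limma adjusted p = 0.0032), and by 1.61 within set B and 1.18 within set C. The polysomal call held under every alternative recomputed for single genes, and the difference ran from 1.25 to 1.96 when 1 array at a time was left out.

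Nr1d1, the nuclear receptor REV-ERBα, was the member that rose in total RNA. Its WT total arrays measured 2.99, 3.24 and 3.24, not far above the floor, and its knockout total arrays 4.503, 5.32 and 5.20. It rose by 1.85 (SE 0.33, limma adjusted p = 0.0050), with the dim WT values limiting how well its size is known. In polysomal RNA it measured 6.33 and 7.08 in WT and 8.25, 7.63 and 6.97 in knockout. These groups overlapped, and the difference of 0.91 did not pass (SE 0.37, limma adjusted p = 0.13). It passed without knockout polysomal replicate 3 (1.24, adjusted p = 0.048). Within set B the polysomal difference was 1.30 and within set C it was -0.11.

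Nr1d2, the paralogue REV-ERBβ, was strongly detected and gave no call. It measured 12.90, 12.91 and 12.30 on WT and 12.37, 12.18 and 12.38 on knockout total arrays (difference -0.39, SE 0.17, limma adjusted p = 0.12). WT total replicate 3 lay among the knockout arrays, and without it the difference was -0.59 (adjusted p = 0.0088). In polysomal RNA the 2 WT arrays, at 11.17 and 11.55, bracketed the knockout arrays, at 11.43, 11.41 and 11.33. The difference was 0.03 (SE 0.19, 95% interval -0.39 to 0.45, limma adjusted p = 0.95).

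**Figure D2:**
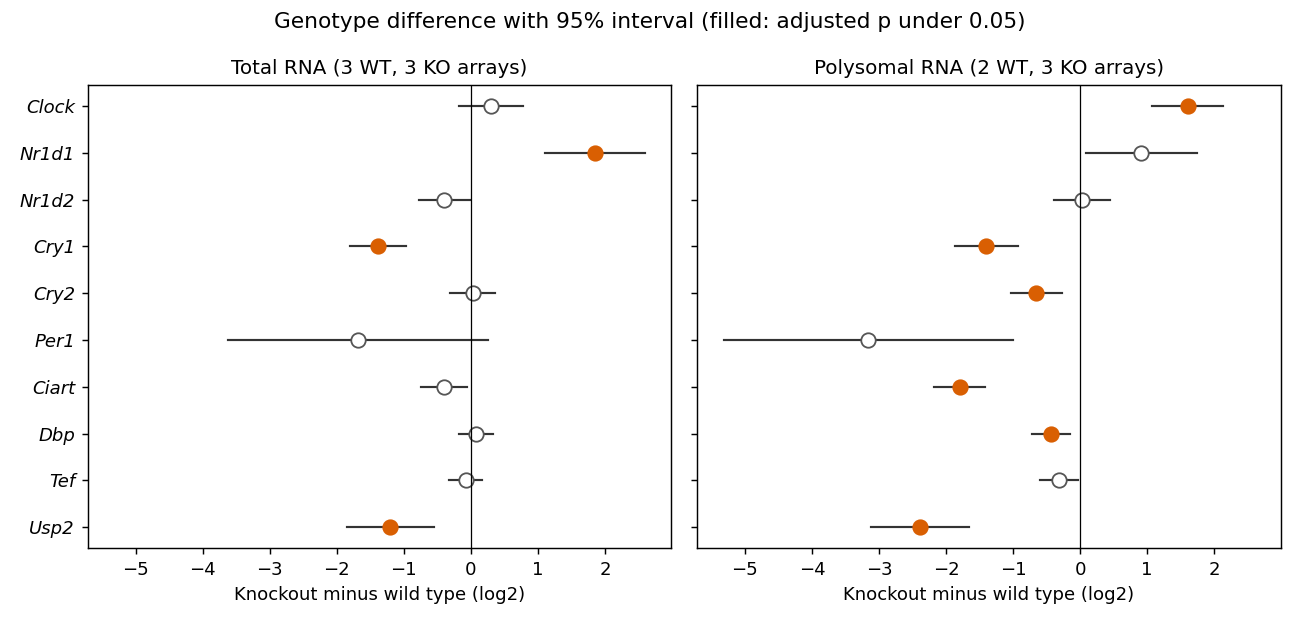
Knockout minus wild type in log2 (x axis) for the 10 genes (rows), in total RNA on the left and polysomal RNA on the right; points are the fitted differences, lines are 95% intervals, and filled points have adjusted p under 0.05. Cry1 and Usp2 lie below 0 in both panels, and the interval of Per1 is the widest.

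Among the output genes, Usp2 stood apart from Dbp and Tef. Usp2 encodes a protease that removes ubiquitin and can stabilise clock proteins. Its 3 probe sets held identical values and are 1 measurement. It measured 8.16, 7.97 and 7.44 on WT total arrays and 7.24, 6.19 and 6.53 on knockout total arrays. On polysomal arrays it measured 9.16 and 9.36 in WT and 6.47, 6.91 and 7.24 in knockout. No knockout array reached a WT array of its RNA kind, and the gap was wider on polysomes. In total RNA Usp2 fell by 1.202 (SE 0.29, adjusted p = 0.017 by limma), and the call was lost without WT total replicate 1 (adjusted p = 0.065), knockout total replicate 2 (0.067) or knockout total replicate 3 (0.052). On polysomal arrays it fell by 2.38 (SE 0.33, adjusted p = 0.0025 by limma), and that call held under every alternative recomputed for single genes. Of 25 tested genes named Usp and a number, 3 rose and 2 fell in each comparison, beside the 23.2% and 15.1% of all genes called in total and polysomal RNA, and Usp2 had the lowest value in both. The next lowest were Usp16 at -0.62 in total RNA and Usp11 at -1.01 in polysomal RNA. Usp2 was put on the list with results of these arrays known, so its rank is a description.

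Dbp, whose message is among the strongest cyclers in many tissues, was close to level here. It measured 11.31, 11.40 and 11.13 on WT and 11.41, 11.26 and 11.42 on knockout total arrays (difference 0.08, SE 0.11, limma adjusted p = 0.65). On polysomal arrays it measured 11.74 and 11.997 in WT and 11.29, 11.56 and 11.47 in knockout, without overlap. It fell there by 0.43 (SE 0.13, limma adjusted p = 0.048). The call stood at the threshold and was lost when any of 10 of the 11 arrays was left out, the exception being WT total replicate 3, with adjusted p reaching 0.27 without WT polysomal replicate 2. Tef ranged from 5.20 to 5.86 over the 11 arrays, and its differences of -0.08 for total RNA (SE 0.11, adjusted p = 0.66 by limma) and -0.31 for polysomal RNA (SE 0.12, adjusted p = 0.12) did not pass. Without WT polysomal replicate 1 the polysomal difference of Tef was -0.52 (adjusted p = 0.034).

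Arrays of the 2 genotypes did not overlap for 5 of the 10 genes in total RNA and for 8 in polysomal RNA. The shares of all genes tested were 42% and 48.9%. Ciart is 1 of these 8, and its WT polysomal arrays alone brought it into the test, which favours such a separation. Markers of some cell types changed between the same arrays. In polysomal RNA 4 of 5 ciliated cell markers fell (median -1.27), and the log2 of their summed level was 12.9 to 13.2 on WT and 12.4 to 12.9 on knockout arrays, with Dnaic1 dim at a mean of 3.44. Of the 5 tested of 6 macrophage markers, 3 fell in each RNA kind and 1 rose in total RNA, with Marco near the floor at a mean of 2.46. Their summed level was 15.3 to 15.4 on WT and 14.5 to 14.7 on knockout polysomal arrays, and 14.0 to 14.4 and 13.6 to 13.8 in total RNA. In total RNA 3 of 5 endothelial markers rose (median 0.96), with a summed level of 13.2 to 13.4 on WT and 13.9 to 14.0 on knockout arrays. Heart muscle markers rose for 3 of 6 tested in total RNA (median 0.93) and 1 of 6 in polysomal RNA. Neutrophil markers rose for 2 and 1 of 4, and alveolar type 2 markers for 2 and 0 of 5. In total RNA the summed neutrophil level was 12.5 to 14.8 on WT arrays, which enclosed the knockout arrays at 13.6 to 13.9. On polysomal arrays it was 14.0 to 14.2 on WT and 14.6 to 14.8 on knockout. Heart muscle sums overlapped in both RNA kinds, in total RNA at 10.8 to 11.6 on WT and 11.5 to 12.1 on knockout. Alveolar type 2 sums did not overlap in total RNA (16.1 to 16.9 and 17.1 to 17.2) but did in polysomal RNA. Of the 2 red cell markers 1 rose in each RNA kind. Their summed level did not overlap, at 7.83 to 8.36 on WT and 9.53 to 10.3 on knockout total arrays, and at 10.42 to 10.43 and 11.8 to 12.9 on polysomal arrays. The part of these cell types in the values of the clock genes was not tested. In whole lung, fewer cells of a type and less RNA per cell cannot be told apart.

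In wild-type lung some clock messages measured clearly higher on polysomal arrays than on total RNA arrays, and others lower. The labels give 100 ng of labelled RNA for both RNA kinds, so these are relative levels and not amounts in the lung. Relative to total RNA, Per1 was 3.23 log2 higher on WT polysomal arrays (SE 0.97), Cry2 1.65 higher (SE 0.17), Usp2 1.40 higher (SE 0.33) and Dbp 0.59 higher (SE 0.13). Nr1d1 was 3.55 higher (SE 0.37), a size limited by its WT total values near the floor. Ciart was 1.42 higher (SE 0.17), which is a description, since the WT polysomal arrays alone brought it into the test. Clock was lower, at -2.56 (SE 0.24), as were Nr1d2 at -1.34 (SE 0.19) and Cry1 at -1.08 (SE 0.21). Limma adjusted p-values for these 9 lay between 6.1e-06 and 0.012, and Tef did not pass (0.11, SE 0.12). Of the 10 genes 6 were thus higher, Ciart included, and 3 lower, in a comparison where 72.4% of all genes tested passed (44.5% higher and 27.9% lower), so this count is no mark of the clock genes. Polysomal and total WT arrays did not overlap for 9 of the 10, against 82.5% of all genes. The call for Per1 was lost without either WT polysomal array (adjusted p = 0.056 and 0.052), and that for Dbp under quantile normalization (0.23, adjusted p = 0.10).

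In knockout lung 5 of the 10 genes passed in the same comparison, against 65.2% of all genes (39.5% higher and 25.7% lower). The groups did not overlap for 6 of the 10, against 76.1% of all genes. Clock (-1.25, SE 0.21), Cry1 (-1.10, SE 0.19) and Nr1d2 (-0.92, SE 0.17) were lower on polysomes, and Nr1d1 (2.61, SE 0.33) and Cry2 (0.98, SE 0.15) were higher, with limma adjusted p between 7.7e-05 and 8.1e-04. For Ciart (0.02, SE 0.15), Usp2 (0.22, SE 0.29) and Dbp (0.08, SE 0.11), which stood higher on polysomes in WT, the knockout polysomal and total arrays overlapped. They overlapped for Per1 as well, where the difference was 1.76 (SE 0.86, limma adjusted p = 0.10). The polysomal difference was smaller in knockout than in WT for 8 of the 10 genes, and for 72.2% of all genes tested. The exceptions were Cry1, at -1.08 in WT and -1.10 in knockout, and Tef, near 0 in both. Ciart is 1 of the 8, and its WT polysomal arrays alone brought it into the test, which favours a large WT difference.

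**Figure D3:**
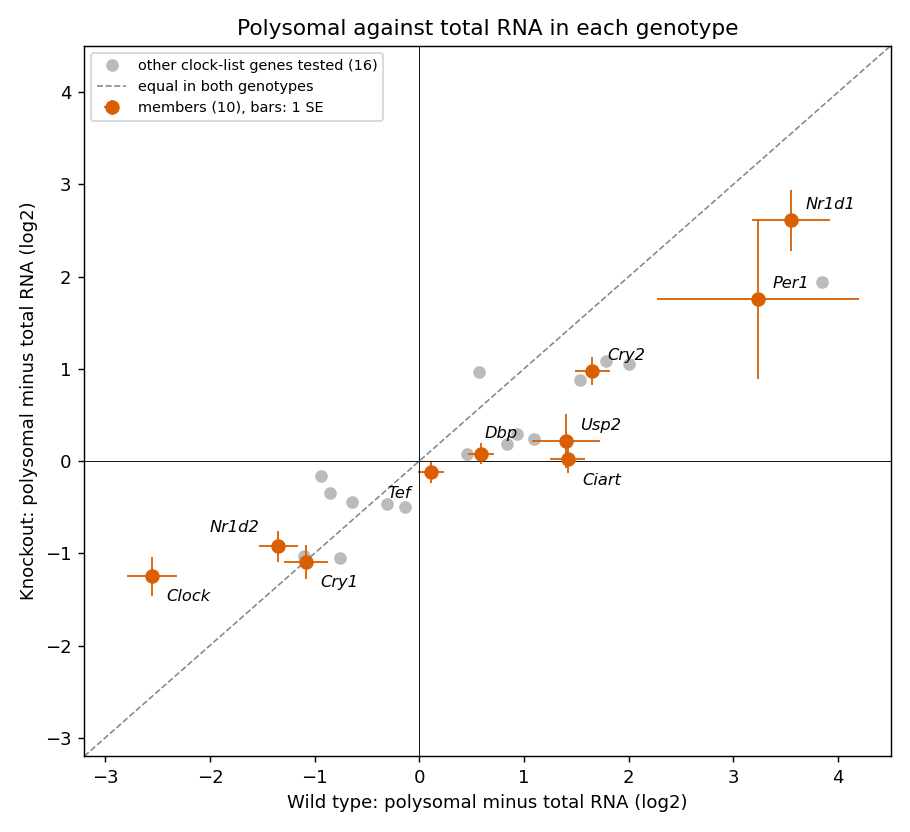
Polysomal minus total RNA in log2 in wild-type lung (x axis) and knockout lung (y axis) for the 10 genes, with bars of 1 SE, and for the 16 other clock-list genes tested, in grey; the dashed line marks equal values. Clock lies above the line, Cry1 on it, and Ciart and Usp2 lie below it near 0 on the knockout axis.

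The interaction compares the knockout difference on polysomes with that in total RNA. Of the 10 genes 2 passed, against 22.3% of all genes. Clock was 1.31 above its total RNA difference (SE 0.32, 95% interval 0.60 to 2.02, limma adjusted p = 0.020), a call lost without WT polysomal replicate 1 (0.95, adjusted p = 0.067). Ciart was below it, at -1.40 (SE 0.23, limma adjusted p = 0.0057), with the same limit from the choice of probe sets as above. For Cry1 the value was -0.01 (SE 0.28, 95% interval -0.64 to 0.62, limma adjusted p = 0.98). Usp2 (-1.18, SE 0.44, adjusted p = 0.080), Cry2 (-0.68, SE 0.23, adjusted p = 0.059) and Dbp (-0.51, SE 0.17, adjusted p = 0.057) did not pass. The median over the 10 genes was -0.60, beside -0.13 for all genes.

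The order of the 4 groups differed between genes. For Usp2 the order from high to low was WT polysomal, WT total, knockout polysomal and knockout total, with means of 9.26, 7.86, 6.87 and 6.65, and only the knockout groups overlapped. Ciart had the same order, at 5.97, 4.55, 4.18 and 4.16, and there too only the knockout groups overlapped, although WT total and knockout polysomal arrays came within 0.0081 log2. Cry1 ran from WT total at 10.4 through WT polysomal at 9.34 and knockout total at 9.04, which met at 1 shared value, to knockout polysomal at 7.94. Clock ran from knockout total at 11.4 through WT total at 11.1 and knockout polysomal at 10.1 to WT polysomal at 8.50, with no neighbours overlapping. For Nr1d1 the order was knockout polysomal, WT polysomal, knockout total and WT total, at 7.62, 6.71, 5.01 and 3.16, and only the polysomal groups overlapped. Per1 stood at 11.1 in WT polysomal RNA, apart from the other 3 groups, at 7.93, 7.85 and 6.17, which overlapped in turn. Cry2 and Dbp were also highest in WT polysomal RNA, at 9.52 and 11.9. Nr1d2 was highest in WT total RNA, at 12.7, which overlapped knockout total RNA at 12.3. For Tef all neighbouring groups overlapped except knockout total at 5.46 and knockout polysomal at 5.34, which came within 0.0265.

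Likeness of profiles was measured as the root mean square difference between log2 values over the 11 arrays, each gene centred on its own mean. By this measure Usp2 and Ciart were each other's nearest gene among the 10, at 0.46, beside spreads of 1.002 and 0.68 about their own means. Outside the clock lists the nearest to Usp2 were Ces1f (0.29) and Slc10a6 (0.32), and the nearest to Ciart were Eno4 (0.18) and Fbp1 (0.20). The nearest to Cry1 were Elmod1 (0.24) and Slc46a3 (0.30), to Clock Fam214b (0.33) and Apobec1 (0.34), and to Nr1d1 Arrb2 (0.34) and Gipc1 (0.36). Elmod1 ran from 8.06 in WT total RNA to 6.69 in knockout total, 6.55 in WT polysomal and 5.30 in knockout polysomal RNA. Eno4, like Ciart, was highest in WT polysomal RNA, at 10.1 against 9.19, 8.65 and 8.74 in WT total, knockout total and knockout polysomal RNA. Arrb2 shared the dim WT total value of Nr1d1, with group means of 3.40 in WT total, 5.39 in knockout total, 7.05 in WT polysomal and 7.27 in knockout polysomal RNA.

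A wider list held 27 further genes of the clock, of which 26 had a probe set and 16 passed the filter on low values. In total RNA 2 of the 16 rose and 4 fell, where 17.2% of all genes tested rose and 5.97% fell. In polysomal RNA 1 rose and 4 fell, beside 8.36% and 6.77% of all genes. The medians were 0.05 and -0.21, beside 0.085 and -0.0080 for all genes. Rora, an activating partner of the nuclear receptor loop, rose by 1.75 in total RNA (SE 0.30, adjusted p = 0.0040 by limma), from 5.01, 5.05 and 5.10 as the low, middle and high WT array to 6.06, 6.91 and 7.42. In polysomal RNA Rora was at -0.16 (SE 0.33, limma adjusted p = 0.81), and its interaction was -1.90 (adjusted p = 0.018). Hlf, a further PAR bZIP factor, fell by 1.03 on polysomal arrays (SE 0.29, limma adjusted p = 0.040) and was at -0.74 in total RNA (SE 0.26, adjusted p = 0.066). Wee1, a cell cycle kinase with a clock-driven promoter, fell in both, by 0.53 (SE 0.16, limma adjusted p = 0.042) and by 0.89 (SE 0.18, adjusted p = 0.012).

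The list also held cofactors, ubiquitin ligase parts and kinases. Hdac3, the deacetylase that works with the REV-ERB receptors, rose by 0.85 in total RNA (SE 0.16, adjusted p = 0.0065 by limma) and had an interaction of -0.955 (adjusted p = 0.024). Nampt, a clock-driven enzyme of NAD synthesis, fell by 0.62 there (SE 0.16, adjusted p = 0.022 by limma). So did Sirt1, the NAD-dependent deacetylase, by 0.47 (SE 0.14, adjusted p = 0.043). Sirt1 had an interaction above 0, at 0.77 (limma adjusted p = 0.032). In polysomal RNA Btrc, a ligase part that acts on period proteins, fell by 0.52 (SE 0.15, limma adjusted p = 0.047), Wdr5 fell by 0.34 (SE 0.09, adjusted p = 0.029), and the kinase Gsk3b rose by 0.34 (SE 0.10, adjusted p = 0.046). Btrc and Wdr5 also had interactions below 0, at -0.86 (limma adjusted p = 0.019) and -0.37 (adjusted p = 0.047). Btrc had 2 distinct probe sets, and only the one with the higher mean is described. The alternatives were not recomputed for genes of the wider list, so whether their calls near the threshold hold was not examined.

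**Figure D4:**
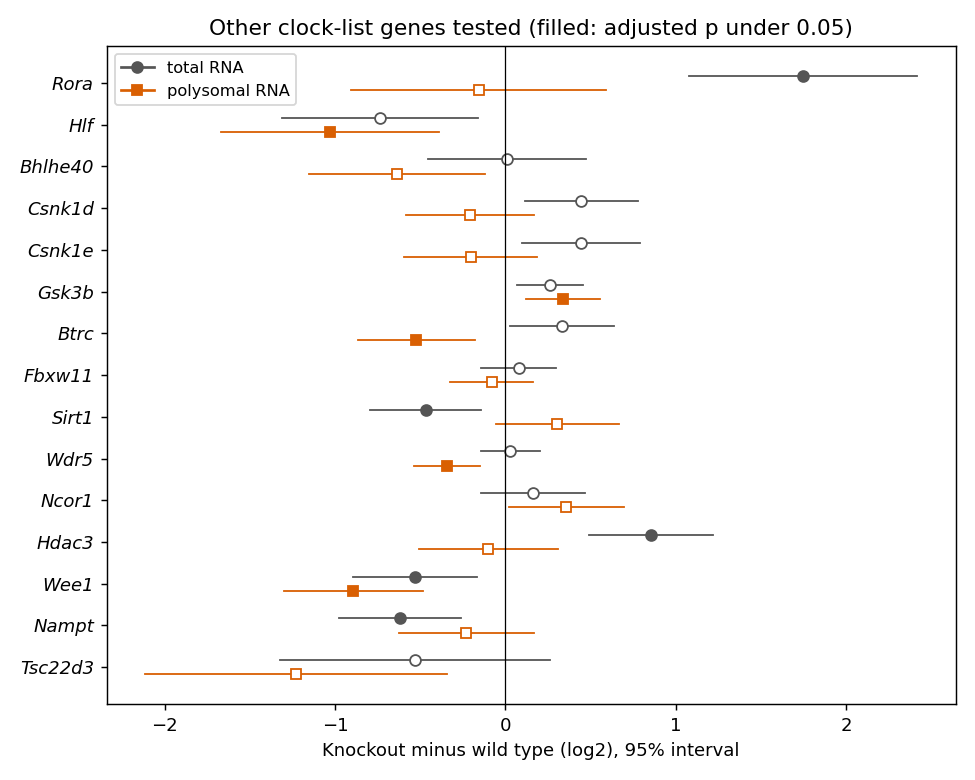
Knockout minus wild type in log2 (x axis) for 15 of the 16 tested genes of the wider clock list (rows), in total RNA (grey circles) and polysomal RNA (orange squares); lines are 95% intervals and filled symbols have adjusted p under 0.05. Wee1 is filled below 0 in both, and Rora is filled in total RNA alone.

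The partner of Clock, Arntl, was too dim to be tested, and its values are given because of how they looked. On WT total arrays Arntl measured 2.94, 2.94 and 3.34, and on knockout total arrays 4.68, 5.03 and 4.33. On polysomal arrays it measured 2.42 and 2.41 in WT and 4.43, 3.77 and 3.77 in knockout. The knockout arrays were higher throughout, while the WT arrays sat near the floor, so neither the size nor a test of this difference is given. The other untested genes of the list included Npas2, Per2 and Per3, none of which exceeded 2.94 on any array.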

How the data were processed

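Per the labels, 100 ng of RNA was labelled for Affymetrix arrays. Per the submitters' processing notes the deposited log2 values were made with GCRMA, with version and probe grouping not given in the sources used here. RefSeq accessions name the 26180 probe sets, and 15228 matched 1 gene each in the RefSeq table of GRCm38.p6 and 10952 none. The filter kept probe sets that reached a log2 of 5 on 2 or more arrays, 13802 probe sets and 8085 genes. limma 3.58.1 (R 4.3.3; lmFit, eBayes) fitted 1 mean per group over 11 arrays (7 residual degrees of freedom, prior 2.67), with 5 two-sided contrasts and the Benjamini-Hochberg adjustment. The fit was tested on simulated data. Named genes were the 10 members, the targeted genes, the wider list and the 2 nearest profiles of 5 members. 1 gene of the wider list is counted but not reported here by name. Members and lists were chosen with earlier results of these data known. Alternatives changed the filter, moderation, normalization, set-letter block, threshold, fold, arrays and probe set. Marker sums are log2 of summed linear values. Figures used matplotlib 3.10.9 in Python 3.11.15.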

Additional observations from a re-analysis of the deposited data

Results flagged for a closer look

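For Clock and Ciart the knockout difference in polysomal RNA departed from that in total RNA, by the interaction term of the limma fit. Clock stood at 1.31 log2 (limma adjusted p = 0.020) and Ciart at -1.40 (adjusted p = 0.0057). The same test passed for 22.3% of all genes, so passing it is no mark of the clock genes. With WT polysomal replicate 1 left out, the value of Clock was 0.95. The Ciart probe set entered the test through the WT polysomal arrays alone.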

How the results depend on the processing

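Each of the 50 differences of the 10 genes was recomputed under the alternatives. Those that changed the threshold or fold, or fitted only the groups compared, gave counts alone. Of 920 values, 860 kept their direction and side of the threshold, 28 lost a call, 15 gained one and 17 changed sign, all of the last from differences that had not passed. Many of these outcomes were fixed in advance, so the tally does not measure robustness. Changing the filter or moderation, or omitting an array outside a comparison, leaves the difference itself unchanged. The lowest-mean tested probe set was the same measurement as the main one for all 10 genes. Quantile normalization turned the knockout polysomal shift of Dbp to -0.18, the interaction of Cry1 to 0.063 and the total RNA difference of Cry2 to -0.071, and equal array medians turned the interaction of Cry1 to 0.014. The interaction count of 2 became 1 with log2 at least 6 on at least 3 arrays, where Ciart and Tef were not tested, and 1 at an adjusted p under 0.01. With only the groups compared in the fit, 3 of the 10 genes were called in total RNA and 4, rather than 6, in polysomal RNA. The share of all genes called was then 17.8% in total RNA and 8.46% in polysomal RNA, beside 23.2% and 15.1% in the main fit. Leaving out 1 array at a time, the count called in total RNA ran from 2 to 5, the 5 being without WT total replicate 3. The share of all genes called in those fits is not given here, so that range has no background beside it. Over the same omissions the polysomal difference of Nr1d2 ran from -0.16 to 0.22, the wild-type polysomal shift of Tef from -0.092 to 0.32, the interaction of Cry1 from -0.29 to 0.27 and the total RNA difference of Cry2 from -0.057 to 0.18. The knockout polysomal shift ran from -0.022 to 0.048 for Ciart and from -0.014 to 0.51 for Usp2. The cause of these changes was not tested.

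The set letters were not used as a pairing in the main fit. Deviations from the group means correlated at -0.05 to 0.12 in 6 pairs of arrays with the same letter and at -0.12 to 0.05 in 9 other pairs. Deviations from means of so few arrays are tied to each other, so these correlations cannot decide whether the letters pair arrays. Only arrays of the same RNA kind were compared, so a pairing of total with polysomal arrays was not examined. With the letter as a replicate block within each RNA kind, 3 of the 10 genes were called in total RNA, 4 (without Cry2, adjusted p = 0.086, and Dbp, 0.13) in polysomal RNA and 3 for the interaction, the added one being Usp2 (-1.23, adjusted p = 0.023 by limma). With a block shared by both RNA kinds, an alternative chosen after seeing the data, 5 were called in polysomal RNA, against 12.3% of all genes. The polysomal difference of Nr1d2 was then -0.034 and the knockout shift of Ciart was -0.032. The small number of arrays limits the precision, and probe sets near the floor have no well measured fold.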
